A study of Mus musculus with 3 samples.

Results

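Elastic fibre and provisional matrix genes were followed across the cell classes of mouse urogenital sinus and prostate. The 10 genes, of 9781 gene rows used, were listed by name: Eln, Fbn1, Mfap2, Mfap5, Fbln2, Emilin1, Mgp, Fn1, Postn and Tnc. All 10 had a row. Droplet single cell RNA-seq had been run on 3 libraries, 1 each from male urogenital sinus (UGS, in which prostate buds arise) of embryos at E18.5, from prostate at P14 and from prostate at P35. The mice came from a mixed C57BL/6 and 129S1/SvImJ stock, their disease state was given as normal, and no genotype was given for these samples. Tissue had been digested with collagenase and then TrypLE in medium with dihydrotestosterone, an androgen. Cells of all libraries sat in 1 table, and their barcodes ended in 1, 2 or 3. The labels hold no key from these endings to the tissues. The endings are therefore called barcode sets 1, 2 and 3, they were not assigned to ages, and values are given set by set with no comparison between ages.

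Elastic fibres are built in the extracellular space. Fibrillin-1 (Fbn1) assembles into microfibrils, to which the small microfibril-associated glycoproteins MAGP-1 (Mfap2) and MAGP-2 (Mfap5) bind, and secreted elastin (Eln) is laid down on this scaffold and cross-linked. Fibulin-2 (Fbln2) and EMILIN-1 (Emilin1) sit at the boundary of elastin and microfibril, and matrix Gla protein (Mgp) is a vitamin K-dependent inhibitor of calcification. Fibronectin (Fn1), periostin (Postn) and tenascin-C (Tnc) are typical of the provisional matrix of embryonic and healing tissue, through which cells attach and move. Fibroblasts and smooth muscle cells are the classical sources of these proteins, and large arteries are among the most elastin-rich tissues.

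In the RefSeq annotation of GRCm38.p6, the assembly of mm10, the elastic fibre genes lie at chr5:134702595-134747368 (Eln), chr2:125300594-125506485 (Fbn1), chr4:141010424-141015976 (Mfap2) and chr6:122513584-122529290 (Mfap5). Fbln2 lies at chr6:91212460-91272540, Emilin1 at chr5:30913387-30921279 and Mgp at chr6:136872435-136875823. The provisional matrix genes lie at chr1:71585473-71653280 (Fn1), chr3:54359267-54391041 (Postn) and chr4:63959785-64047015 (Tnc). UMIs were counted over whole genes, so no exon or isoform is told apart.

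Of the 14573 barcodes, 766, 5350 and 8360 were kept in sets 1, 2 and 3, with medians of 19357, 1738 and 1801 UMIs (unique molecular identifiers, which count mRNA molecules caught in a droplet) for each cell. Sets 2 and 3 had 13 barcodes in common, sets 1 and 2 had 1, and sets 1 and 3 had 0. Clusters were found without the 10 genes among the clustering features and were named from marker genes. Defining markers were present in the classes that bear their name, such as Rgs5 in pericyte-like cells (2189, 1831 and 2422 CPM in sets 1, 2 and 3) and Cdh5 in endothelium-like cells (750, 862 and 776 CPM). CPM is a gene's summed UMIs in a class for every 1000000 UMIs that the class holds. Fibroblast-like cells (368, 1621 and 2606) fell into a Dpt and Lum type (147, 868 and 1130 cells) and a Tcf21 and Col15a1 type (221, 753 and 1476 cells). The markers of the second type separated the types less well than those of the first: Col15a1 was at 39.5 CPM in it and 36 CPM in the Dpt and Lum type of set 1, and Tcf21 at 281 and 246 CPM in set 3. With 1 library per group there was no replicate, and no p-value is given. Intervals are exact 95% intervals for counting error only. Values from 3' UMIs are not divided by gene length, so levels are compared between classes and not between genes.

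Fibroblast-like cells held most of the UMIs of the 10 genes in sets 1 and 3. Their share of all UMIs was 34.6%, 15.5% and 13.6% in sets 1, 2 and 3, and their share of the UMIs of the 10 genes was 68.1%, 45.6% and 69.0%. Smooth muscle-like cells held 3.89%, 29.5% and 17.4% of the UMIs of the 10 genes. Epithelium-like cells, with 27.1%, 50.9% and 57.9% of all UMIs, held 2.47%, 11.3% and 4.46%. At least 2-fold higher values in fibroblast-like than in epithelium-like cells were found for 10 of 10 genes in set 1, 9 of 10 in set 2 and 10 of 10 in set 3. Over all genes tested, 25.5%, 18.8% and 21.2% passed the same rule. Without integration, where several epithelial clusters stayed unnamed, the count in set 2 was 4 of 10 with 3.68% of all genes, and Eln and Emilin1 changed sign. The median log2 ratio of the 10 genes was 5.50, 3.70 and 5.05, against 0.18, 0.03 and -0.19 over all genes tested. Fbln2 in set 2 was the exception, with 39.2 CPM in fibroblast-like and 22.1 CPM in epithelium-like cells.

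**Figure D1:**
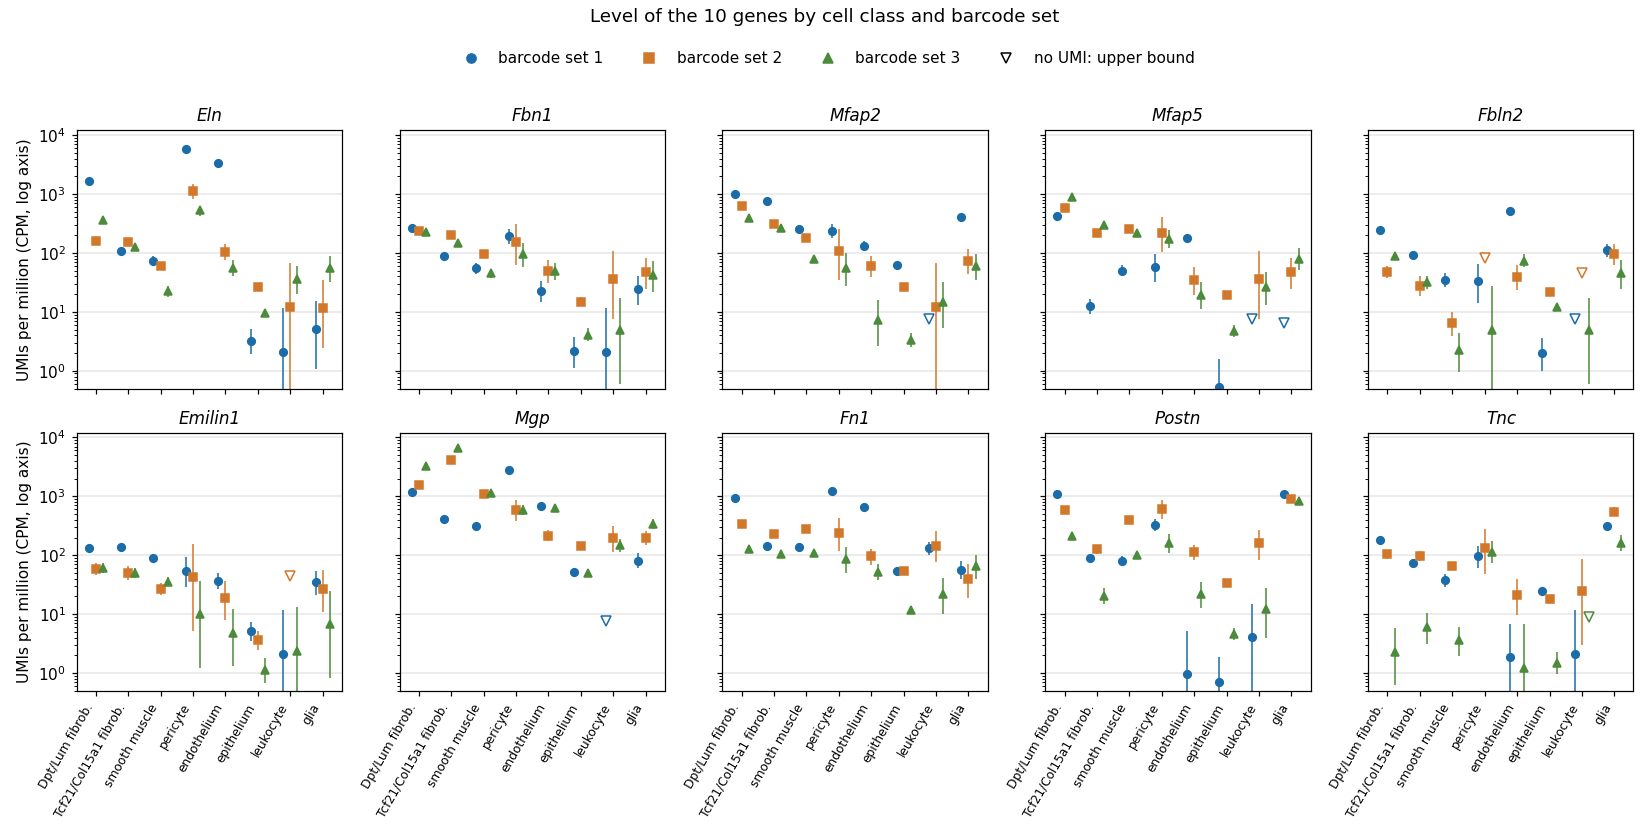
Level of each of the 10 genes in 8 cell classes, with CPM on a log axis and 1 point for each barcode set with its exact 95% counting interval (an open triangle is the upper bound where no UMI was counted). Eln was highest in pericyte-like cells in every set, Mgp was highest in Tcf21 and Col15a1 type fibroblasts in sets 2 and 3, and Tnc was highest in glia-like cells in every set.

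Elastin, the elastic core of the fibre, was at its highest in pericyte-like cells, a class named from pericyte markers such as Rgs5. Its Eln level was 5743 CPM in set 1, 1112 CPM in set 2 and 525 CPM in set 3, and in each set the interval lay above that of every other named class. The class also carried smooth muscle markers, which summed to 7087, 7870 and 12688 CPM, against 1341, 3023 and 1825 CPM in fibroblast-like cells. Whether it holds smooth muscle cells of vessel walls was not tested. Smooth muscle-like cells had 73, 59.5 and 22.2 CPM, so that the log2 ratio of pericyte-like over smooth muscle-like cells was 6.30 (6.02 to 6.58), 4.22 (3.75 to 4.68) and 4.57 (4.13 to 5.004). The smooth muscle-like class of set 1 carried its own markers weakly: their sum was 5529 CPM, under the 7087 CPM of pericyte-like cells, against 28440 and 28125 CPM in smooth muscle-like cells of sets 2 and 3. Its erythroid markers summed to 5776 CPM, against 195 CPM in pericyte-like cells, and the part of either in the ratio was not tested. With cells classed 1 by 1, which gave 129, 59 and 197 pericyte-like cells, it was 5.43, 1.22 and 2.50. The reference collagens differed less, with log2 ratios of 1.30, 0.16 and -0.13 for Col1a2 and of 0.69, 1.18 and 0.28 for Col3a1. After thinning each cell to 900 UMIs, 40%, 38.1% and 28.8% of pericyte-like cells had an Eln UMI, against 4.17%, 4.91% and 1.55% of smooth muscle-like cells and 0%, 1.85% and 0.791% of epithelium-like cells. In the Dpt and Lum type the share was 46.9%, 9.69% and 12.2%, so by share of cells the pericyte-like class did not lead in set 1. With 3 cells taken as the floor, the 0 of 115 epithelium-like cells in set 1 allows a share of up to 2.61%, which is not an exact interval. Median depths before thinning were 21694, 1229 and 1374.5 UMIs in pericyte-like, 18313.5, 1583.5 and 1605 in smooth muscle-like and 43134, 4074 and 3464 in epithelium-like cells. Thinning left out 7, 342 and 693 cells with fewer UMIs.

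The pericyte-like level of set 1 rested on few cells. Among its 10 cells the Eln counts were 681, 465, 175 and 56 UMIs in 4 cells and 3, 2, 2, 1, 0 and 0 UMIs in the other 6. The same 4 cells had 57, 119, 32 and 80 UMIs of Fn1, while the other 6 had at most 5. They also had 29, 114, 36 and 137 UMIs of the smooth muscle actin gene Actg2, against 0 to 10 in the other 6. All 10 cells had Rgs5, from 5 to 180 UMIs. In sets 2 and 3 the counts were spread over more cells: 12 of 29 and 38 of 128 pericyte-like cells had an Eln UMI, with at most 11 and 12 in a cell.

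Endothelium-like cells of set 1 gave a second case in which a class level was made by few cells. As a class they had 3381 CPM of Eln, above the 1692 CPM of Dpt and Lum type fibroblasts. Of the 3560 Eln UMIs behind that level, 1808 and 1725 came from 2 of 38 cells, or 99.2%, and no other cell had more than 7. The 2 cells were singled out after their values were seen. They also held 187 of 187 Mfap5 UMIs, 531 of 552 Fbln2 UMIs, 725 of 731 Mgp UMIs and 665 of 694 Fn1 UMIs of the class. By contrast, they held 58 of 140 Mfap2 UMIs, 1 of 2 Tnc UMIs and none of Postn.

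Both cells carried endothelial transcripts. Egfl7 counted 43 and 76 UMIs, Tie1 26 and 41, and Eng 71 and 43. Genes known from arterial endothelium were present too, with 31 and 107 UMIs of Gja4, 12 and 7 of Gja5 and 4 and 26 of Hey1, each higher in CPM over the 2 cells together than over the other 36. Sox17, another such gene, had 7 and 21 UMIs and was lower over the 2 cells (185 CPM) than over the other 36 (384 CPM). Vwf, the endothelial clotting factor gene, had 75 and 138 UMIs. Kdr and Emcn, which mark many capillaries, were lower at 52.9 and 85.9 CPM over the 2 cells, against 319 and 936 CPM over the other 36. Of markers of neighbouring classes, Rgs5, Dcn, Des and Ptprc had 0 UMIs in both cells and Actg2 had 10 and 0. Fibrillar collagen transcripts were present: Col3a1 had 10 and 38 UMIs, or 317 CPM against 9.98 CPM over the other 36 cells, and Col1a2 had 8 and 11, or 126 CPM against 2.22 CPM. Their totals of 87990 and 63309 UMIs were high for the class, whose median was 20338, and their doublet scores stood at percentiles 92.8 and 99.6 of the set. The part of joined droplets in these values, and of other cells' RNA, was not tested.

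Over the other 36 endothelium-like cells of set 1, Eln was at 29.9 CPM (27 UMIs in 12 cells), Fbln2 at 23.3 CPM, Fn1 at 32.2 CPM and Mgp at 6.66 CPM. Mfap5 had 0 UMIs in these cells. The log2 ratio of fibroblast-like over endothelium-like cells for Eln in set 1 was -1.95 with the 2 cells and 4.86 without them. For Fbln2 it was -1.65 and 2.84. No such cells stood out in the other sets, where the highest Eln count of an endothelium-like cell was 6 in set 2 and 3 in set 3. The class level there was 105 and 55.9 CPM, and the Eln ratio of fibroblast-like over endothelium-like cells was 0.57 and 2.09. Endothelium-like cells of set 2 held erythroid markers at 4190 CPM and smooth muscle markers at 4842 CPM. Fibroblast-like cells of that set had 30.3 and 3023 CPM, and the part of such transcripts in the Eln ratio was not tested. In cells with 1000 genes or more the set 3 ratio was -1.25, on 15 and 26 UMIs.

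**Figure D2:**
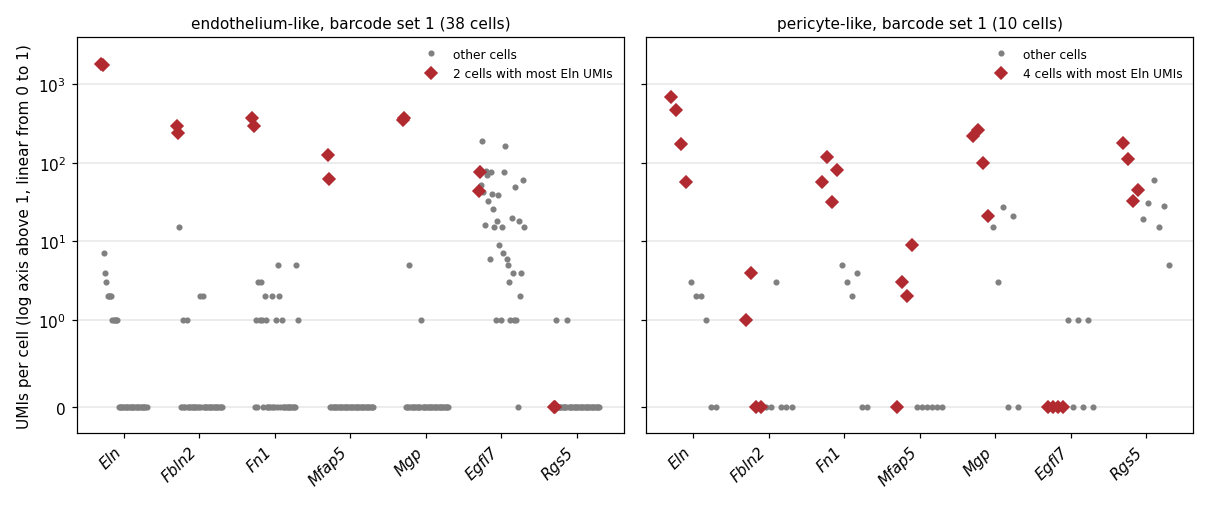
UMIs of Eln, Fbln2, Fn1, Mfap5, Mgp, the endothelial gene Egfl7 and the pericyte gene Rgs5 in each endothelium-like (left) and pericyte-like (right) cell of set 1, with 1 point per cell on an axis that is linear from 0 to 1 and logarithmic above; diamonds mark the cells with most Eln UMIs. In the endothelium-like class 2 of 38 cells hold 3533 of 3560 Eln UMIs, and in the pericyte-like class 4 of 10 cells have 56 UMIs or more.

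Counts over the 10 genes moved with these cells. At least 2-fold higher values in fibroblast-like than in endothelium-like cells were found for 5 of 10 genes in set 1, 8 of 10 in set 2 and 8 of 9 in set 3, where 22%, 12.8% and 14.2% of all genes tested passed. Without the 2 cells, 10 of 10 genes passed in set 1, with 22.3% of all genes. The count was 2 of 10 in set 1 after thinning to 900 UMIs, with 7.11% of all genes, and 5 of 8 in set 3 with at least 1000 genes per cell, with 11.7%. The opposite direction held for 2 genes in set 1, Eln and Fbln2, and for 0 in sets 2 and 3, with 11.3%, 15.2% and 21.2% of all genes passing. Fbln2, which is known from endothelial as well as mesenchymal cells, stayed close in both classes in sets 2 and 3: fibroblast-like cells had 39.2 and 58.4 CPM and endothelium-like cells 39.7 and 74.1 CPM.

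Between the types of fibroblast, Eln was higher in the Dpt and Lum type in sets 1 and 3. Its levels were 1692, 160 and 363 CPM in the Dpt and Lum type and 109, 151 and 127 CPM in the Tcf21 and Col15a1 type. The log2 ratio was 3.95 (3.81 to 4.10) in set 1, 0.08 (-0.21 to 0.38) in set 2 and 1.51 (1.30 to 1.73) in set 3. These values depended on how the types were drawn. At clustering resolution 1.0 they were 3.08, 1.92 and 2.81, and with cells classed 1 by 1 they were 1.85, 1.02 and 1.49. Without integration they were 1.82 in set 2 and 2.42 in set 3, where the Tcf21 and Col15a1 type held 3 Eln UMIs. Col1a2 had ratios of 1.75, 1.09 and 0.48 in the same cells, so the Eln ratio lay above that of Col1a2 in sets 1 and 3 and under it in set 2.

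Fbn1, the backbone of the microfibril, had 264, 240 and 223 CPM in the Dpt and Lum type and 88.6, 203 and 146 CPM in the Tcf21 and Col15a1 type. Smooth muscle-like cells had less, at 54.7, 95.6 and 44.9 CPM, and epithelium-like cells 2.16, 14.9 and 4.1 CPM. In Dpt and Lum type fibroblasts Fbn1 was one of the less uneven of the 10 genes from cell to cell, as described with the spread of the counts.

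Mfap2, which encodes MAGP-1, was highest in Dpt and Lum type fibroblasts in every set, at 1002, 632 and 384 CPM. The Tcf21 and Col15a1 type came next with 760, 315 and 262 CPM, and its intervals lay apart from those of the Dpt and Lum type. Smooth muscle-like cells had 252, 177 and 79.3 CPM. Glia-like cells had 404 CPM in set 1, above smooth muscle-like cells, and 74 and 59 CPM in sets 2 and 3. Leukocyte-like cells had the lowest level in sets 1 and 2, with 0 and 1 UMIs.

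Mfap5, which encodes MAGP-2, separated the fibroblast types more than Mfap2 did. Its levels were 430, 578 and 878 CPM in the Dpt and Lum type and 12.5, 215 and 293 CPM in the Tcf21 and Col15a1 type. On the log2 scale the ratio was 5.10 (4.68 to 5.56), 1.43 (1.21 to 1.65) and 1.58 (1.44 to 1.72), against 0.40, 1.00 and 0.55 for Mfap2, and the intervals of both genes lay apart in every set. Smooth muscle-like cells had 50.3, 251 and 222 CPM of Mfap5. In glia-like cells of set 1 Mfap5 was at 0 UMIs, so that fibroblast-like cells had at least 41.1-fold more, taking 3 UMIs over the class as the floor.

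At the interface of elastin and microfibril, Emilin1 did not differ between the fibroblast types beyond counting error in any set. Its levels were 130, 59.1 and 61.9 CPM in the Dpt and Lum type and 136, 50.4 and 50.4 CPM in the Tcf21 and Col15a1 type, which on the log2 scale is a ratio of -0.06 (-0.24 to 0.13) in set 1, 0.23 (-0.28 to 0.75) in set 2 and 0.30 (-0.11 to 0.70) in set 3. Smooth muscle-like cells had 89.3, 26.9 and 35.8 CPM. Fbln2 had 248, 47.7 and 88.2 CPM in the Dpt and Lum type and 92.1, 28 and 32.3 CPM in the Tcf21 and Col15a1 type. It was low in smooth muscle-like cells in sets 2 and 3, at 6.39 and 2.22 CPM, and the log2 ratio of fibroblast-like over smooth muscle-like cells was 2.27, 2.62 and 4.72.

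Mgp changed its order between the fibroblast types from set to set. In set 1 the Dpt and Lum type had 1167 CPM and the Tcf21 and Col15a1 type 407 CPM. In set 2 the values were 1569 and 4112 CPM, and in set 3 they were 3271 and 6676 CPM. The log2 ratio was 1.52 (1.43 to 1.61), -1.39 (-1.46 to -1.32) and -1.03 (-1.07 to -0.98). Among cells of 1000 genes or more it was 0.20 in set 2 and 1.99 in set 3, a setting that keeps deeper cells and clusters them anew. Mgp was also not at least 2-fold higher in the Tcf21 and Col15a1 type of sets 2 and 3 under 3 other settings. These were resolution 1.0, no integration and cells classed 1 by 1. In set 3 the same held with a mean of per-cell rates. Mgp was 1 of the 10 leading genes of the Tcf21 and Col15a1 type cluster, although it had been left out of the clustering features. At 900 UMIs, 79.4% and 85.4% of the Tcf21 and Col15a1 type cells of sets 2 and 3 had an Mgp UMI, against 55.7% and 62.9% of the Dpt and Lum type. In epithelium-like cells the share was 9.87% and 3.05%. Median depths before thinning were 1164 and 1260 UMIs in the Tcf21 and Col15a1 type, 1293 and 1415.5 in the Dpt and Lum type and 4074 and 3464 in epithelium-like cells.

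Smooth muscle-like cells carried 315, 1116 and 1131 CPM of Mgp, in sets 2 and 3 the next level after the fibroblasts among the named classes. The mitotic cluster lay above them there, at 1569 and 1249 CPM. Pericyte-like cells had 2762 CPM in set 1, above both fibroblast types, and 589 and 585 CPM in sets 2 and 3, under smooth muscle-like cells. In set 1 the same 4 pericyte-like cells that led for Eln held 218, 262, 99 and 21 of the 666 Mgp UMIs. The enzymes that activate Mgp by vitamin K-dependent carboxylation, Ggcx and Vkorc1, were at least 2-fold higher in fibroblast-like than in epithelium-like cells in each set. Over all genes tested, 25.5%, 18.8% and 21.2% passed the same rule. Both were also at least 2-fold higher in glia-like than in epithelium-like cells in each set. Glia-like cells held 47, 51 and 98 Mgp UMIs and had 97.1, 66.2 and 79.8 CPM of Vkorc1. Vkorc1, which recycles vitamin K, had 210, 94.7 and 129 CPM in the Dpt and Lum type, 105, 62.5 and 105 CPM in the Tcf21 and Col15a1 type and 38.7, 25.8 and 36.3 CPM in epithelium-like cells.

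Counted over the 10 genes, 8 of 10, 3 of 10 and 4 of 9 were at least 2-fold higher in the Dpt and Lum type, where 8.75%, 4.83% and 5.58% of all genes tested passed. Mfap5 and Postn passed in every set. With at least 1000 genes per cell only Fbln2 passed in set 2 (4.74% of all genes), where Mfap5 was at 0.94 and Postn was also under 2-fold. With cells classed 1 by 1, Mfap5 was at 0.88 in set 2. Without integration 5 of 10 passed in set 2 (5.84%) and 2 of 9 in set 3 (1.78%), where Postn was at 0.60. At resolution 1.0, 6 of 10 passed in set 2 (6.94%). In the opposite direction 1 gene passed in sets 2 and 3, Mgp both times, where 3.46% and 4.97% of all genes did. In set 1 no gene of the 10 did, where 1172 of 6351 genes tested did, and the lowest log2 ratio was the -0.06 of Emilin1. Medians of the log2 ratio were 1.55, 0.39 and 0.61 over the 10 genes and -0.28, 0.05 and 0.01 over all genes tested. The reference fibroblast transcripts were also higher in the Dpt and Lum type. Col3a1 had 7863, 7525 and 5945 CPM in it, against 3139, 3485 and 3337 CPM in the Tcf21 and Col15a1 type. For Dcn the values were 6106, 6486 and 10158 CPM against 2208, 2456 and 4764.5 CPM. The count of 1 was 0 under several alternatives given in the closing section.

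**Figure D3:**
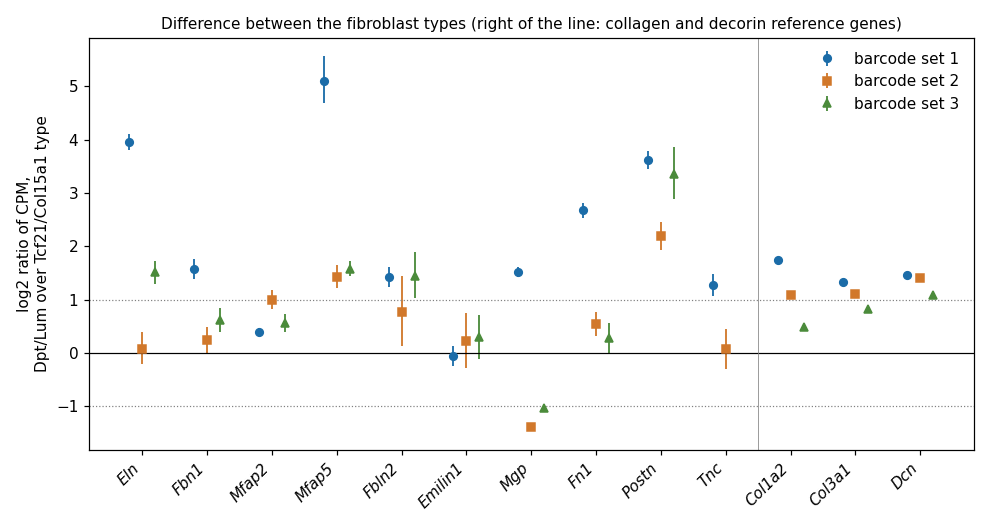
Log2 ratio of the Dpt and Lum type over the Tcf21 and Col15a1 type for each of the 10 genes and for Col1a2, Col3a1 and Dcn, with 1 point for each barcode set and its exact 95% counting interval. Postn lies above 0 in every set at 3.62, 2.19 and 3.36, Emilin1 lies near 0, and Mgp lies above 0 in set 1 and below 0 in sets 2 and 3.

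Fibronectin, the first scaffold of provisional matrix, was spread over the stroma. Fn1 had 921, 337 and 126 CPM in the Dpt and Lum type, 144, 232 and 104 CPM in the Tcf21 and Col15a1 type and 140, 284 and 111 CPM in smooth muscle-like cells. Its log2 ratio of fibroblast-like over smooth muscle-like cells was 1.89 in set 1 but 0.04 (-0.11 to 0.18) and 0.05 (-0.15 to 0.25) in sets 2 and 3. Both intervals leave out a difference of 2-fold. Pericyte-like cells had 1252, 240 and 85.1 CPM. Leukocyte-like cells, which include macrophages, had 133, 146 and 21.8 CPM. Of the 64 UMIs behind the first value, 34 came from 1 of 38 cells.

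Periostin and tenascin-C, matricellular proteins that bind other matrix proteins and cell surface integrins, showed a pattern of their own: both were high in glia-like cells. Postn was at 1075, 888 and 822 CPM in glia-like cells. The Dpt and Lum type had 1096, 578 and 212 CPM, pericyte-like cells 328, 610 and 160 CPM and smooth muscle-like cells 81.1, 395 and 101 CPM. The intervals of glia-like cells and the Dpt and Lum type overlapped in set 1, and those of glia-like and pericyte-like cells in set 2. In set 3 the glia-like interval (721 to 934 CPM) lay above that of every other class.

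Tnc had 314, 549 and 163 CPM in glia-like cells and was highest there in every set, although the pericyte-like interval overlapped it in set 3 at 115 CPM. The Dpt and Lum type had 181, 103 and 2.29 CPM and the Tcf21 and Col15a1 type 75.2, 98 and 6.05 CPM. In set 3 the fibroblast types held 4 and 12 Tnc UMIs, too few for a ratio under the minimum of 20 UMIs. Pericyte-like cells had 115 CPM in that set and smooth muscle-like cells 3.6 CPM, a log2 ratio of 4.997 (3.96 to 6.10). The pericyte-like value rests on 23 UMIs in 9 of 128 cells, and 2 of these held 11 of them.

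The glia-like cluster carried 7 of the 7 glial markers with a row. It had 21, 187 and 238 cells. The log2 ratio of glia-like over fibroblast-like cells was 0.90 (0.78 to 1.03), 1.21 (1.00 to 1.42) and 2.90 (2.66 to 3.13) for Postn and 1.31 (1.07 to 1.55), 2.44 (2.14 to 2.75) and 5.25 (4.40 to 6.17) for Tnc. At resolution 1.0 the set 1 ratios were 0.11 (-0.02 to 0.23) for Postn and 0.82 for Tnc, and with cells classed 1 by 1 the set 2 ratio of Postn was 0.74. Reference fibroblast transcripts went the other way in the same cells, with -3.69, -1.34 and -1.62 for Col1a2 and -4.78, -3.40 and -2.35 for Dcn. Col3a1 differed less in sets 2 and 3, with -2.63, -0.75 and -1.07. The summed fibroblast marker list was nonetheless at 1528, 5869 and 5112 CPM in glia-like cells, and its part in their levels of these genes was not tested.

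At least 2-fold higher values in glia-like than in fibroblast-like cells were found for 1, 3 and 2 of 10 genes in sets 1, 2 and 3, with 13.2%, 14.5% and 21.2% of all genes tested. In the opposite direction 7, 7 and 6 of 10 passed, with 12.3%, 9.07% and 8.65% of all genes. Median log2 ratios were -2.39, -2.50 and -2.11 over the 10 genes and 0.12, 0.10 and 0.35 over all genes tested. Tnc passed in every set and Postn in sets 2 and 3, apart from the settings just given, and Fbln2, at 97.4 CPM in glia-like and 39.2 CPM in fibroblast-like cells, in set 2. At 900 UMIs, 42.9%, 56.9% and 46.4% of glia-like cells had a Postn UMI, and 23.8%, 39.8% and 11.8% had a Tnc UMI. In epithelium-like cells these shares were 0%, 2.06% and 0.226% for Postn and 1.74%, 1.42% and 0.226% for Tnc. The Postn count of 0 in set 1 allows up to 2.61% with 3 cells taken as the floor, which is not an exact interval. The median depth of glia-like cells was 21278, 1058 and 854.5 UMIs, and 21, 123 and 110 of its cells had the 900 UMIs needed.

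Promoters were available for 6 of the 10 genes (Fbn1, Postn, Mfap2, Emilin1, Fbln2 and Tnc) in the same annotation. Those of Postn and Tnc are shown because these genes shared the glia-like pattern. For each gene the annotated start with the letters TATAAA nearest before it was chosen, so finding them there was fixed by the choice. The other annotated start of Postn held no TATAAA, and that of Tnc held it 205 to 200 bases before the start. The 250 bases before each chosen start are given, with capitals marking a match to a searched motif. The Postn window is chr3:54360857-54361106 on the plus strand, and the Tnc window is chr4:64047016-64047265 on the minus strand.
Postn: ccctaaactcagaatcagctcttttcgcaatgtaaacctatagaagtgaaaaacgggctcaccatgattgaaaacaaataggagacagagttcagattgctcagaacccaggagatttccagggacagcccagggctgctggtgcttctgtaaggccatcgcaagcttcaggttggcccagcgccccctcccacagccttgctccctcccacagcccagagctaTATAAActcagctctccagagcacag
Tnc: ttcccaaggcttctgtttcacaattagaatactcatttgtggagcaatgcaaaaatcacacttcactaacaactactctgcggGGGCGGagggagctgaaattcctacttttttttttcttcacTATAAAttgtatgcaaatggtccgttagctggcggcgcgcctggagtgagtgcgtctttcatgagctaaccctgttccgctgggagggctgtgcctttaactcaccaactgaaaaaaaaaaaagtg
The letters TATAAA stood 26 to 21 bases before the start of Postn and 126 to 121 bases before that of Tnc, and GGGCGG stood 167 to 162 bases before the start of Tnc. Motifs were searched on both strands. Of 32851 windows of this length, not chosen for these letters, 12.4% held TATAAA and 32.7% held GGGCGG. The AP-1 letters TGACTCA (4.46% of windows), the TEAD letters GGAATG (12.6%) and the SOX letters ACAAAG (16.5%) were not in either window.

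Smooth muscle-like cells, the contractile class of the stroma, led no gene of the list. At least 2-fold higher values in fibroblast-like than in smooth muscle-like cells were found for 9, 6 and 6 of 10 genes, with 11%, 9.67% and 15% of all genes tested, and 0 genes passed in the opposite direction, where 3.97%, 9.75% and 12.4% of all genes did. Median log2 ratios were 1.84, 1.14 and 1.68 over the 10 genes and 0.13, 0.11 and 0.07 over all genes tested. Both Fn1, as given above, and Postn, at -0.05 (-0.17 to 0.08) and 0.13 (-0.08 to 0.34), had intervals that included 0 in sets 2 and 3. With at least 1000 genes per cell, Rgs5-led cells joined the smooth muscle-like class. The count higher in fibroblast-like cells then fell to 3 of 10 in set 1, with 10.4% of all genes, and Eln, Fbn1, Mgp, Fn1 and Tnc changed sign there. In the other direction 3 of 10 genes in set 1 (Eln, Mgp and Fn1) and 1 of 8 in set 3 (Eln) were then at least 2-fold higher in that class than in fibroblast-like cells, where 9.46% and 4.48% of all genes were.

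Outside the stroma the 10 genes were not equally low. Set against fibroblast-like cells, the epithelium-like level was 0.372%, 16.8% and 4.04% for Eln, 7.05%, 5.31% and 1.05% for Mfap2, and 6.71%, 5.46% and 0.968% for Mgp. For the reference transcripts it was 0.928%, 4.21% and 0.984% for Col1a2, 0.862%, 3.87% and 0.947% for Col3a1 and 2.30%, 22.4% and 11.3% for Dcn. RNA of broken cells enters every droplet, and its part in these values was not tested.

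Fn1, Tnc and Fbln2 were set against the same references. Fn1 stood at 10.3%, 18.8% and 10.3% of the fibroblast-like level, and Tnc at 19.3%, 17.7% and 35.3%, where the set 3 value rests on 24 and 16 UMIs. Fbln2 stood at 1.19%, 56.3% and 20.8%. All 3 genes lay above Col1a2 in each set, although the Fbln2 interval of set 1 (0.591% to 2.13%) took in the Col1a2 value. Dcn, at 22.4% and 11.3%, lay above Fn1 in sets 2 and 3 and above Tnc in set 2, so the order depends on the reference chosen. In sets 2 and 3 Dcn was found in 1238 of 1417 and 1955 of 2693 epithelium-like cells, and Col1a2 in 313 and 179 of them. Whether epithelium-like cells make Dcn themselves was not tested.

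**Figure D4:**
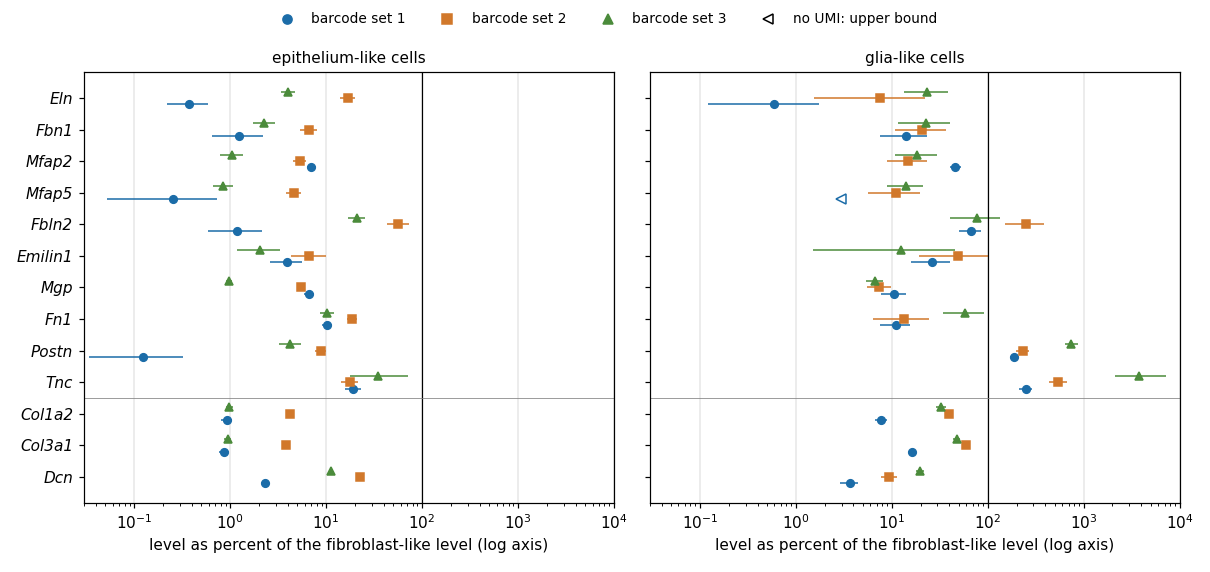
Level in epithelium-like (left) and glia-like (right) cells as a percentage of the level in fibroblast-like cells, on a log axis with a line at equal levels, for the 10 genes and for Col1a2, Col3a1 and Dcn, with 1 point for each barcode set and its exact 95% counting interval. In epithelium-like cells Fn1 stands at 10.3%, 18.8% and 10.3%, with Col1a2 at 0.928%, 4.21% and 0.984% and Dcn at 2.30%, 22.4% and 11.3%, and in glia-like cells Postn and Tnc lie above the line in every set.

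The genes also differed in how their transcripts were spread over cells of 1 class. The Fano factor, the variance of the UMIs per cell divided by their mean, is 1 when counts scatter as random sampling would, and was taken after thinning to 900 UMIs. In Dpt and Lum type fibroblasts it was 4.55, 1.83 and 5.58 for Eln and 2.66, 2.58 and 8.63 for Mgp. It was 1.17, 1.05 and 1.17 for Fbn1 and 0.91, 1.02 and 1.13 for Mfap2. The more abundant Col1a2 had factors of 3.41, 3.50 and 3.02, and Fano factors rise with the mean where cells differ.

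**Figure D5:**
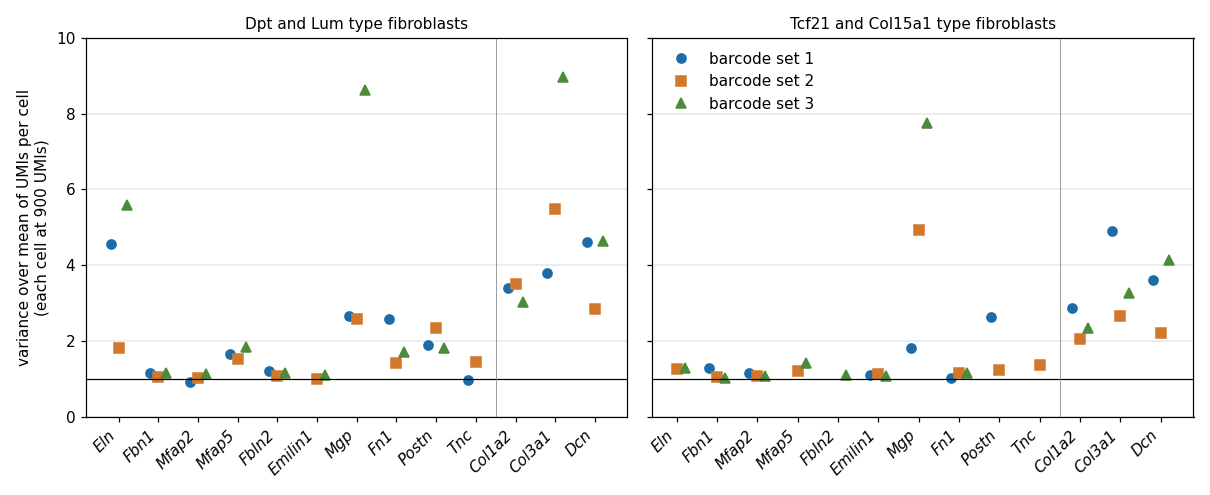
Fano factor of the UMIs per cell at 900 UMIs for each gene, by fibroblast type (panels) and barcode set (points), with a line at 1. In the Dpt and Lum type Eln stands at 4.55, 1.83 and 5.58 and Mfap2 at 0.91, 1.02 and 1.13.

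Pairs of genes were counted in the same thinned cells, and the count of cells with both was divided by that given by the product of the shares. In Dpt and Lum type fibroblasts this ratio was above 1 for 25 of 35, 18 of 40 and 27 of 34 pairs in sets 1, 2 and 3, with medians of 1.17, 0.96 and 1.23. It was 1.47, 1.21 and 2.16 for Fbln2 and Postn, 1.36, 1.28 and 1.99 for Fbn1 and Postn and 1.18, 1.34 and 1.76 for Eln and Fbn1. For Eln and Fbln2 it was 1.28 in set 1 and 2.10 in set 3. Other pairs lay near or under 1, such as Mgp and Postn (0.98, 0.96 and 0.83) and Mfap2 and Fn1 (1.02, 0.82 and 0.89). In glia-like cells Mgp and Postn met less often than the product of the shares, with ratios of 0.35 and 0.34 in sets 2 and 3, on 2 and 3 cells with both. These are ratios of sparse counts and are given as a description.

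Across the 36 combinations of cluster and set with at least 20 cells, Pearson's r of log2(CPM + 10) was highest for Mfap2 with Emilin1 (0.91), followed by Mfap5 with Mgp (0.88), Fbn1 with Mgp (0.87) and Postn with Tnc (0.85). The lowest was 0.25, for Mfap5 with Fbln2. Such groups share libraries and depth, so r is a description with no test. Among 4290 genes outside the lists, those most like each gene were Htra1, Bgn and Pear1 for Eln (0.84, 0.78 and 0.77) and Pcolce, Col5a2 and Col6a1 for Fbn1 (0.95, 0.94 and 0.93). Rcn3 and the collagen prolyl hydroxylase genes P3h3 and P3h1 came first for Emilin1 (0.90, 0.89 and 0.89), and Maged2, Serpinh1 and Mdk for Mfap2 (0.93, 0.90 and 0.90). For Mgp they were Bgn, Sntb2 and Pcolce (0.90, 0.89 and 0.87), and for Mfap5 they were Serping1, Csf1 and Pcolce (0.87, 0.87 and 0.86).

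Dclk1, Col3a1 and Lhfp were nearest to Postn (0.84, 0.82 and 0.81), and Lhfp, Hs2st1 and Ajap1 to Tnc (0.80, 0.79 and 0.78). Fn1 had Myadm, Ccdc102a and Map7d1 (0.78, 0.75 and 0.74), and Fbln2 had Lpar4, Mest and 1700025G04Rik (0.78, 0.76 and 0.74).

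Other genes of elastic fibre assembly gave less contrast. Of 24 listed genes 8 had a row, and 4 of 6, 5 of 7 and 4 of 6 tested were at least 2-fold higher in fibroblast-like than in epithelium-like cells, against the 25.5%, 18.8% and 21.2% of all genes given above. At least 2-fold lower were 1, 0 and 1, against 15.5%, 17.7% and 23.4% of all genes. Ltbp4, a latent TGF-beta binding protein needed for elastic fibre assembly, did not follow Eln: it had 254, 407 and 531 CPM in the Dpt and Lum type, 261, 418 and 465 CPM in the Tcf21 and Col15a1 type and 153, 262 and 200 CPM in pericyte-like cells. Loxl3, a lysyl oxidase of the family that cross-links elastin, had 18.7, 7.83 and 15.5 CPM in the Dpt and Lum type and 0.901, 0.493 and 0.189 CPM in epithelium-like cells. Mmrn1, a relative of Emilin1, was found mainly in endothelium-like cells at 4.75, 16.4 and 141 CPM. Between the fibroblast types 1 of 6, 1 of 3 and 2 of 4 were at least 2-fold higher in the Dpt and Lum type, beside 8.75%, 4.83% and 5.58% of all genes, and 2, 0 and 0 lower, beside 1172 of 6351 genes in set 1 and 3.46% and 4.97% in sets 2 and 3.

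Other provisional matrix genes had a row in 8 of 19 cases. Of those tested, 4 of 6, 3 of 6 and 4 of 6 were at least 2-fold higher in fibroblast-like than in epithelium-like cells (25.5%, 18.8% and 21.2% of all genes). Between the fibroblast types 3, 2 and 4 of 5 were higher in the Dpt and Lum type (8.75%, 4.83% and 5.58% of all genes). Thbs1, a matricellular activator of TGF-beta, had 843, 1681 and 2679 CPM in the Dpt and Lum type and 143, 1279 and 1249 CPM in the Tcf21 and Col15a1 type. Thbs3 had 103, 69.8 and 40.7 CPM and 29.2, 21.5 and 13.1 CPM. Tnn, a relative of Tnc, had at most 0.878 CPM in any class, and Tnr, another, reached 38.4, 49.7 and 38.5 CPM in neuron-like cells.

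Integrins are the cell surface receptors of fibronectin, periostin and tenascin-C, and 4 of 10 listed had a row. Of those tested, 2 of 4, 0 of 3 and 2 of 4 were at least 2-fold higher in fibroblast-like than in epithelium-like cells, where 25.5%, 18.8% and 21.2% of all genes were. In each set 1 was at least 2-fold lower, against 15.5%, 17.7% and 23.4% of all genes. Itgav, a partner chain in several of these receptors, had 81.9, 166 and 188 CPM in the Dpt and Lum type and 73.5, 132 and 147 CPM in epithelium-like cells. Itgb6, an epithelial chain that pairs with it, had 15.1, 73.3 and 36.6 CPM in epithelium-like cells and at most 2.8 CPM in either fibroblast type.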

How the data were processed

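The authors counted UMIs with Cell Ranger 3.1.0 on mm10 to which mGFP and hARtg sequences had been added, and per their methods filtered out empty droplets, multiplets and cells with much mitochondrial RNA. The sample labels name version 3 and the methods version 2 of the 3' kit. The deposited values are natural log values (0 to 7.94) of UMIs scaled to 10000 per cell with 1 added. Whole UMIs were recovered from them, and all 11120281 values above 0 were whole within 0.05. The table was held in part (9784 rows, of chromosomes 1 to 7, 10, X and part of 8) and other genes are not analysed here. A row filled for part of the cells and 2 rows sharing a name were left out. The rows held 52.7%, 50.4% and 49.4% of the UMIs of sets 1, 2 and 3. Cells with under 200 genes were left out (97 of set 3). The design had foreseen counts in the table, and rates were taken from the recovered UMIs.

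Clustering followed the study's steps in Seurat 5.3.0 (R 4.3.3, Matrix 1.6.5): integration over 20 dimensions on 2000 features, cell cycle regression, 30 principal components and resolution 0.5. The 10 genes, the listed pathway genes and the row of the reporter EGFP were kept out of the features. A cluster was named when it carried at least 3 markers of 1 class (a UMI in at least 10% of cells, at least 2 times the median cluster) and no other class had more markers among its 10 leading genes. The fibroblast types were told apart by the higher mean log2 score of their marker lists. Of 14 clusters, a mitotic and 2 others stayed outside the named classes. Scrublet in scanpy 1.11.5 called 3, 0 and 0 doublets, and no cell was removed. Why so few were called was not tested.

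Rates have exact Poisson intervals, shares exact Clopper-Pearson intervals and ratios exact intervals from a binomial test on both sums. Sums of 0 to 2 UMIs were set to 3 in ratios, and a ratio needed 20 UMIs in all. Calculations used Python 3.11.15, numpy 2.4.6 and scipy 1.17.1. The steps were tested on simulated data. Named genes were the 10 genes, the listed pathway genes with a row, the 3 genes most like each, the class markers and reference genes. The 10 genes and all lists were chosen with earlier results of these data known. Cell names gave no key to samples, so no test between groups was made. Positions and promoters are from RefSeq (GRCm38.p6). Some marker values are not reported here.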

Additional observations from a re-analysis of the deposited data

Results flagged for a closer look

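In all, 3 patterns were at least 2-fold in opposite directions in different barcode sets. Mgp in pericyte-like over smooth muscle-like cells also changed sign, with log2 ratios of 3.13, -0.92 and -0.95 in sets 1, 2 and 3, the last 2 under 2-fold. The difference between the sets was not tested, since each set stands for no more than 1 library.

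The log2 ratio of fibroblast-like over endothelium-like cells for Eln was -1.95 in set 1 and 2.09 in set 3. The first value rests on 2 endothelium-like cells, which hold 99.2% of the Eln UMIs of the class, and it is 4.86 without them. The second became -1.25 with at least 1000 genes per cell, on 15 and 26 UMIs. For Mgp, the log2 ratio of the Dpt and Lum type over the Tcf21 and Col15a1 type was 1.52 in set 1, -1.39 in set 2 and -1.03 in set 3. Among cells of 1000 genes or more it was 0.20 in set 2 and 1.99 in set 3. The ratio of pericyte-like over endothelium-like cells for Mfap5 was -1.61 in set 1, 2.64 in set 2 and 3.17 in set 3. All 187 endothelium-like Mfap5 UMIs of set 1 came from the same 2 cells, and without them too few UMIs were left for a ratio.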

How the results depend on the processing

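The 4 fibroblast contrasts, pericyte-like over smooth muscle-like and glia-like over fibroblast-like cells were recomputed under 10 alternatives, where the classes held enough cells. There were 129 log2 ratios of at least 2-fold. Recomputing them gave 946 values, of which 870 kept sign and fold and 19 changed sign. Leaving out the 2 endothelium-like cells of set 1 turned fibroblast-like over endothelium-like Eln to 4.86 and Fbln2 to 2.84 and raised the count of higher genes to 10. Without integration several epithelial clusters stayed unnamed, and in set 2 fibroblast-like over epithelium-like Eln became -0.69 and Emilin1 -0.55 (9 and 1 epithelial UMIs), Mfap2 between the fibroblast types -0.085, and the count over epithelium fell to 4. With at least 1000 genes per cell, Rgs5-led cells joined the smooth muscle-like class, and fibroblast-like over smooth muscle-like ratios in set 1 became -2.50 for Eln, -0.66 for Fbn1, -1.68 for Mgp, -1.70 for Fn1 and -0.58 for Tnc, with -0.59 for Fbln2 in set 2 and -1.62 for Eln in set 3. The same setting gave Fbln2 over epithelium in set 3 -0.46, Eln over endothelium in set 3 -1.25, and Mgp between the fibroblast types 0.20 in set 2 and 1.99 in set 3. Thinning to 900 UMIs gave Emilin1 over endothelium in set 1 -0.34 (5 endothelial UMIs), and glia-like over fibroblast-like Mfap5 0.18 and Emilin1 0.42 in set 1, where the glia-like count of 0 stood at the floor of 3. Eln between the fibroblast types in set 2, 0.08, became 1.92 at resolution 1.0, 1.82 without integration and 1.02 with cells classed 1 by 1. Pericyte-like over smooth muscle-like Eln fell to 1.22 in set 2 and 2.50 in set 3 with cells classed 1 by 1, and could not be had at 1000 genes, where no pericyte-like class of enough cells was formed. Glia-like over fibroblast-like Postn in set 1, 0.90, was 0.11 at resolution 1.0, and in set 2, 1.21, it was 0.74 with cells classed 1 by 1.

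Counts moved as follows. Higher in fibroblast-like than endothelium-like cells: 2 in set 1 when thinned, 5 in set 2 at 4-fold, and 5 in set 3 at 1000 genes. Higher than in smooth muscle-like cells: 3 at 1000 genes and 4 at 4-fold in set 1, and 1 at 4-fold in set 2, with 3 (set 1) and 1 (set 3) in the opposite direction at 1000 genes. Higher in the Dpt and Lum type: 4 in set 1 at 4-fold, 6 in set 2 at resolution 1.0, 5 without integration, 1 at 1000 genes and 1 at 4-fold, and in set 3 2 without integration and 1 at 4-fold. Higher in the Tcf21 and Col15a1 type: 0 in set 2 at resolution 1.0, without integration, at 1000 genes, with cells classed 1 by 1 and at 4-fold, and in set 3 0 under these and with a mean of per-cell rates, and 2 with no minimum of UMIs. Where no construction is named, the cause was not tested.

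Joining the mitotic cluster to fibroblast-like cells, joining unnamed cluster 12 to epithelium-like cells and leaving out the 2 endothelium-like cells were chosen after seeing the data. Leaving out mitotic clusters was already the naming used. No paired analysis was possible because there was only 1 library in a group. Depth limits rare genes most: Tnc in fibroblast-like cells of set 3 rested on 16 UMIs.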
